A study of Homo sapiens with 14 samples.

Results

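The genes described here are the molecular chaperones of the HSP90, HSP70, HSP110, HSP60, HSP10, small HSP, DNAJ and CCT families. They were taken by symbol: HSP90, HSPA, HSPH, HSPD, HSPE, HSPB or DNAJ with the number or letter of a family member, or CCT2 to CCT8 with any suffix. Read-through genes and the binding proteins HSPBP1 and HSPBAP1 were left out. CCT8L2, which is not one of the ring subunits, was counted in. On the array, 97 of 22283 probe sets carried such a symbol alone, and they stood for 61 of 11963 genes. Each gene was read from its brightest probe set, and 45 of the 61 passed the filter on low signal and were tested, among 7178 genes tested in all. The other 16 were too dim to test: CCT8L2, DNAJB14, DNAJB2, DNAJB4, DNAJC15, DNAJC17, DNAJC28, DNAJC3, DNAJC6, HSPA12A, HSPA1L, HSPA2, HSPB2, HSPB3, HSPB7 and HSPB8. HSPA8, HSPA1A and HSPA1B, the main cytosolic HSP70 genes, lay only on probe sets that list several genes and were not analysed here, and TCP1, the remaining CCT subunit, was not analysed here either.

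All cells were of Kasumi-1, a long-established human line from acute myeloid leukaemia in which the fusion AML1-ETO joins RUNX1 to RUNX1T1. All 14 single-colour arrays were made from RNA collected at 96 h. An siRNA against AML1-ETO was delivered with the lipid reagent siLentFect (3 arrays) or by Amaxa nucleofection, an electrical transfection (3 arrays). The control siRNA targeted firefly luciferase, a gene these cells lack, and was given by lipid (3 arrays) or nucleofection (2 arrays). Another array came from cells nucleofected without siRNA, and 2 more came from untransfected cells. Lipid carried siRNA at 240 nM and nucleofection at 1.5 µM, so dose and method cannot be told apart. The labels do not say whether replicates were separate cultures, so each p-value reflects only how far these arrays scatter, and that scatter may be technical.

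Chaperones bind unfolded or partly folded proteins and use cycles of binding and release, most of them driven by ATP, to help them fold, to hold them or to pass them on for degradation. HSP70 proteins take their clients from J-domain proteins of the DNAJ family, which start ATP hydrolysis, while HSP110 proteins exchange the nucleotide. HSP90 finishes the folding of kinases and receptors, the CCT ring folds actin, tubulin and WD-repeat proteins in the cytosol, and HSPD1 with its lid HSPE1 does the same work in mitochondria. Many of these genes are raised by heat shock factor HSF1 through heat shock elements, and those of the endoplasmic reticulum by the unfolded protein response through its stress element.

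The promoters of 6 members are shown because they hold the elements through which these pathways act and because results below turn on these genes. In the 250 bases before the start of 55 members with a RefSeq entry (GRCh38.p14), both strands were searched for a 3-unit heat shock element: the units GAA, TTC and GAA, or TTC, GAA and TTC, with NN between neighbouring units. It was found in 5 of the 55 members (9.09%): DNAJB6, HSP90AA1, HSP90AB1, HSPA6 and HSPD1. Among all genes with such a window, 152 of 27305 (0.557%) held it. The shorter 2-unit form, GAANNTTC or TTCNNGAA, which the longer form contains, was present in 18 members (32.7%) and in 14% of all genes. The endoplasmic reticulum stress element, CCAAT followed by CCACG after a gap of any bases of fixed length, or its reverse complement, was found in HSPA5 and HSP90B1 (3.64% of members, 0.0916% of all genes). The plain CCAAT box, which is part of that element, occurred in 38.2% of members and 37% of all genes. A match is a description of the letters and not evidence of binding.

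In the following sequences, written 5′ to 3′ on the strand of the gene and ending at the base before its start, capitals mark the heat shock element. HSP90AA1 is at chr14:102087045-102087294 on the minus strand, DNAJB6 at chr7:157336754-157337003 on the plus strand, HSPA6 at chr1:161524290-161524539 on the plus strand and HSPD1 at chr2:197499841-197500090 on the minus strand.
HSP90AA1: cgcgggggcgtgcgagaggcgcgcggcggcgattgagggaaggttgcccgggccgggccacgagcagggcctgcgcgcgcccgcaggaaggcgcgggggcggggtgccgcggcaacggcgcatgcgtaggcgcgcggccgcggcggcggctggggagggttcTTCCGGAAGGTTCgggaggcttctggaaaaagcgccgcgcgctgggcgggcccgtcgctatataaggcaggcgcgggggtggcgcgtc
DNAJB6: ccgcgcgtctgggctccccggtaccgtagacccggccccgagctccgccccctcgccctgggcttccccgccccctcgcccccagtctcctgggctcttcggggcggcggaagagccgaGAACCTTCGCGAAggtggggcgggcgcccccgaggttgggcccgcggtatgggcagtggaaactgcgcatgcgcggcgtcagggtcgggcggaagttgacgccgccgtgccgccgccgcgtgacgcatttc
HSPA6: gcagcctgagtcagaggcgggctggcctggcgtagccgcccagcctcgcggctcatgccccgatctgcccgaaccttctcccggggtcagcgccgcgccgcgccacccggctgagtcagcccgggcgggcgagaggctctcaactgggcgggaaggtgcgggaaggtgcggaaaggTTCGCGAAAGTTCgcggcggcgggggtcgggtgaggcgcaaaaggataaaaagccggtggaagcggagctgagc
HSPD1: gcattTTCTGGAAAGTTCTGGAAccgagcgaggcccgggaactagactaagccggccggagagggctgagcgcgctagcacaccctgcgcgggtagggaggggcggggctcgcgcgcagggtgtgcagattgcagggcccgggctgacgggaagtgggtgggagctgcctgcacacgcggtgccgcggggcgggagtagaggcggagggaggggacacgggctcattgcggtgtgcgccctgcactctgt
The match began 88 bases before the start in HSP90AA1, 131 in DNAJB6 and 74 in HSPA6. RefSeq lists 2 starts for HSP90AA1 and for HSPD1, and the window with the match is the one shown. In HSPD1 there were 2 overlapping matches, the farther beginning 245 bases before the start.

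In the next pair, capitals mark the endoplasmic reticulum stress element. HSPA5 is at chr9:125241344-125241593 on the minus strand and HSP90B1 at chr12:103930160-103930409 on the plus strand.
HSPA5: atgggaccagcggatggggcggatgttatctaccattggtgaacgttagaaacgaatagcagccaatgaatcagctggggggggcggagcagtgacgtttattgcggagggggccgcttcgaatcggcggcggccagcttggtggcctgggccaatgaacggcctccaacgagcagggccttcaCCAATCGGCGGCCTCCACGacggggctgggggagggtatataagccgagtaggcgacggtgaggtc
HSP90B1: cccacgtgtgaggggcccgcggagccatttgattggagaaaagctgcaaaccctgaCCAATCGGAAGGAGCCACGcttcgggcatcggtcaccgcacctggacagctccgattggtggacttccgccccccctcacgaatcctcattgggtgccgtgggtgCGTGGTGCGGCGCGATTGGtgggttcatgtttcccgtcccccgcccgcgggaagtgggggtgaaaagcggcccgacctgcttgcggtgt
The element began 66 bases before the start in HSPA5. HSP90B1 held 2, at 194 and 89 bases, the nearer in the reverse orientation.

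Whether the siRNA had lowered its target, and what else set the arrays apart, was read from a few genes outside the chaperones. RUNX1T1, the ETO part of the fusion, had a geometric mean signal of 701 after luciferase nucleofection and 297 after AML1-ETO nucleofection, and of 556 and 440.5 by lipid. The progenitor markers KIT and MPO were bright on every array, with signals of 1617 to 2297 and 4784 to 7572. Other blood cell markers moved with method and knockdown. In the order luciferase lipid, luciferase nucleofection, AML1-ETO lipid and AML1-ETO nucleofection, geometric means were 74.9, 48.6, 68.9 and 37.1 for CD34 and 93.8, 186, 89.6 and 306 for PTPRC. For CD38 they were 36.3, 48.7, 43.1 and 23.1, with 3 of the 14 arrays below the floor of 20. Of 14 markers of lymphoid, erythroid, platelet, epithelial and fibroblast cells, PPBP and CDH1 were below that floor on all arrays, and the 14 summed to between 471.5 and 666.5 on an array. EPCAM was lower after nucleofection, with geometric means of 71.3 to 134 in its 3 groups against 209 to 242 in the others. The log2 ratio of the 3′ to the 5′ control probe set of GAPDH, a sign of RNA integrity, lay between −0.38 and −0.17 on the lipid and untransfected arrays, between −0.18 and −0.11 with AML1-ETO siRNA by nucleofection, at −0.04 without siRNA, and at 0.03 and 0.25 with luciferase siRNA by nucleofection. It too moved with the method and with the knockdown by nucleofection. The same ratio for ACTB did not follow the method. Its group means were 0.58 in untransfected cells, 0.35 and 0.48 by lipid with luciferase and AML1-ETO siRNA. By nucleofection they were 0.61 and 0.39 with these siRNAs, and 0.36 without siRNA. The part of the markers and of these ratios in the results below was not tested.

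**Figure D1:**
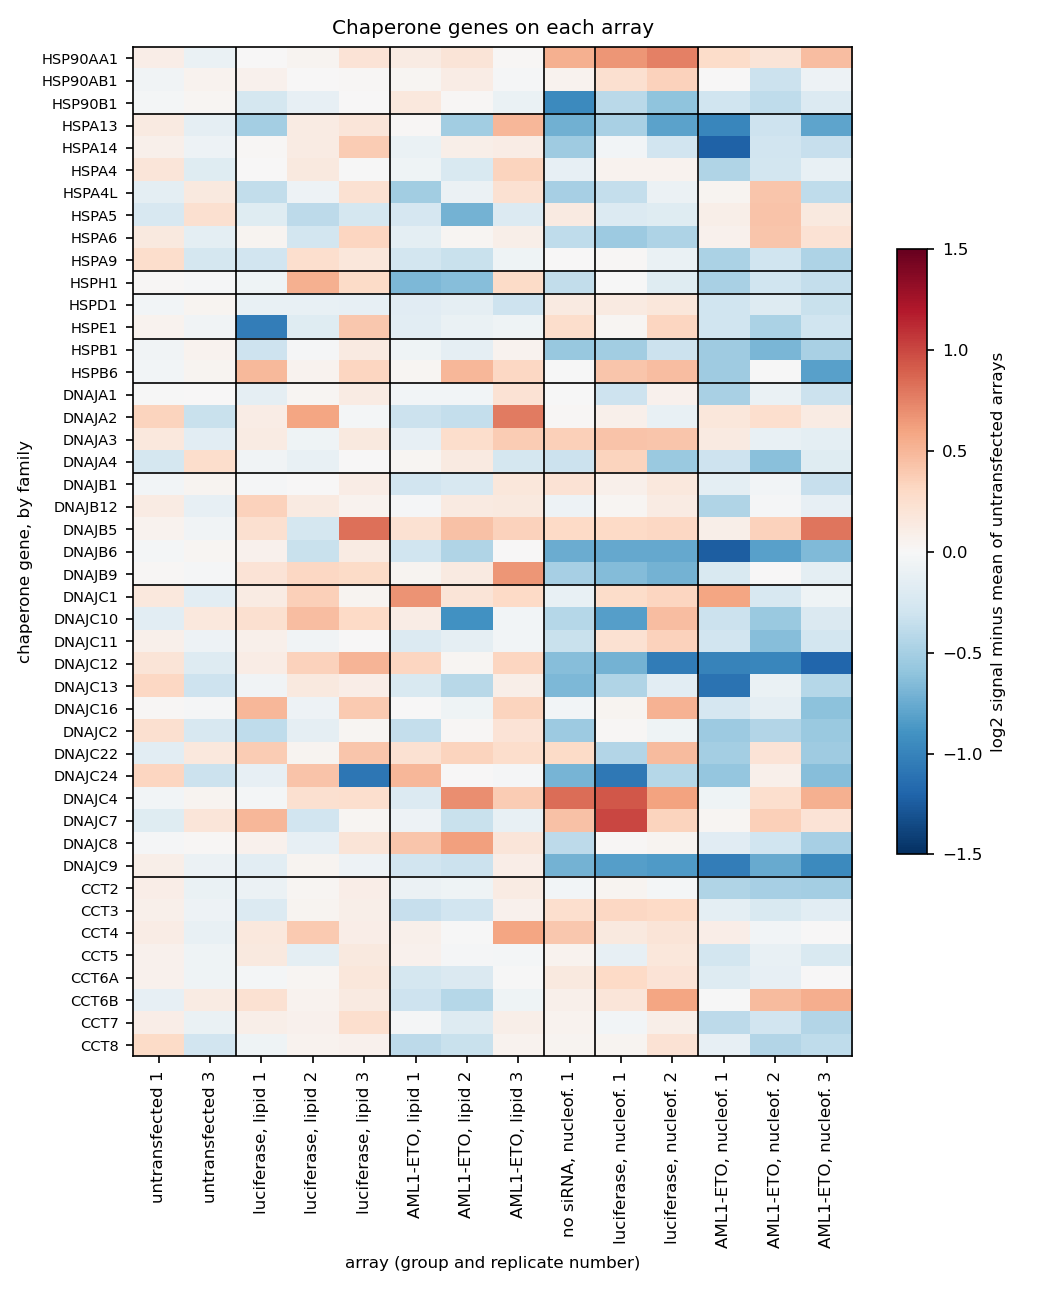
Heat map of the 45 tested chaperone genes (rows, by family, lines between families) on the 14 arrays (columns, lines between groups). Colour is the log2 signal minus the mean of the 2 untransfected arrays, so blue is lower and red higher; DNAJC12, DNAJC9 and DNAJB6 are blue across the nucleofection arrays, and HSP90AA1 is red there.

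The method of transfection was compared first, because more chaperones passed the test there than in any other comparison. Each difference is the mean over both siRNAs of lipid minus nucleofection, on the log2 scale of the signal with values under 20 raised to 20. Of the 45 tested members 11 were called at an adjusted p below 0.05, against 25.6% of all genes tested. By direction, 9 members were higher with lipid (22% of all genes) and 2 were lower (3.68% of all genes). The share of members, 24.4%, was near that of all genes, so the number called is not a result about the chaperones. Groups did not overlap in 5 members that were higher with lipid (11.1%, against 11.9% of all genes) and in 0 that were lower (1.37% of all genes). The median difference of all 45 was 0.14 and that of all genes 0.17. That shift depended on the scaling: after quantile normalization the median of all genes was 0.01, the split of all calls went from 85.7% to 55.8% higher, and that of members from 9 higher and 2 lower to 4 higher and 7 lower. The 4 were DNAJC12, DNAJC9, DNAJB9 and DNAJB6, and the 7 were HSP90AA1, HSPA5, DNAJB1, DNAJC7, CCT3, CCT6A and CCT6B. Of all 7178 genes, 632 were then called higher and 501 lower.

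**Figure D2:**
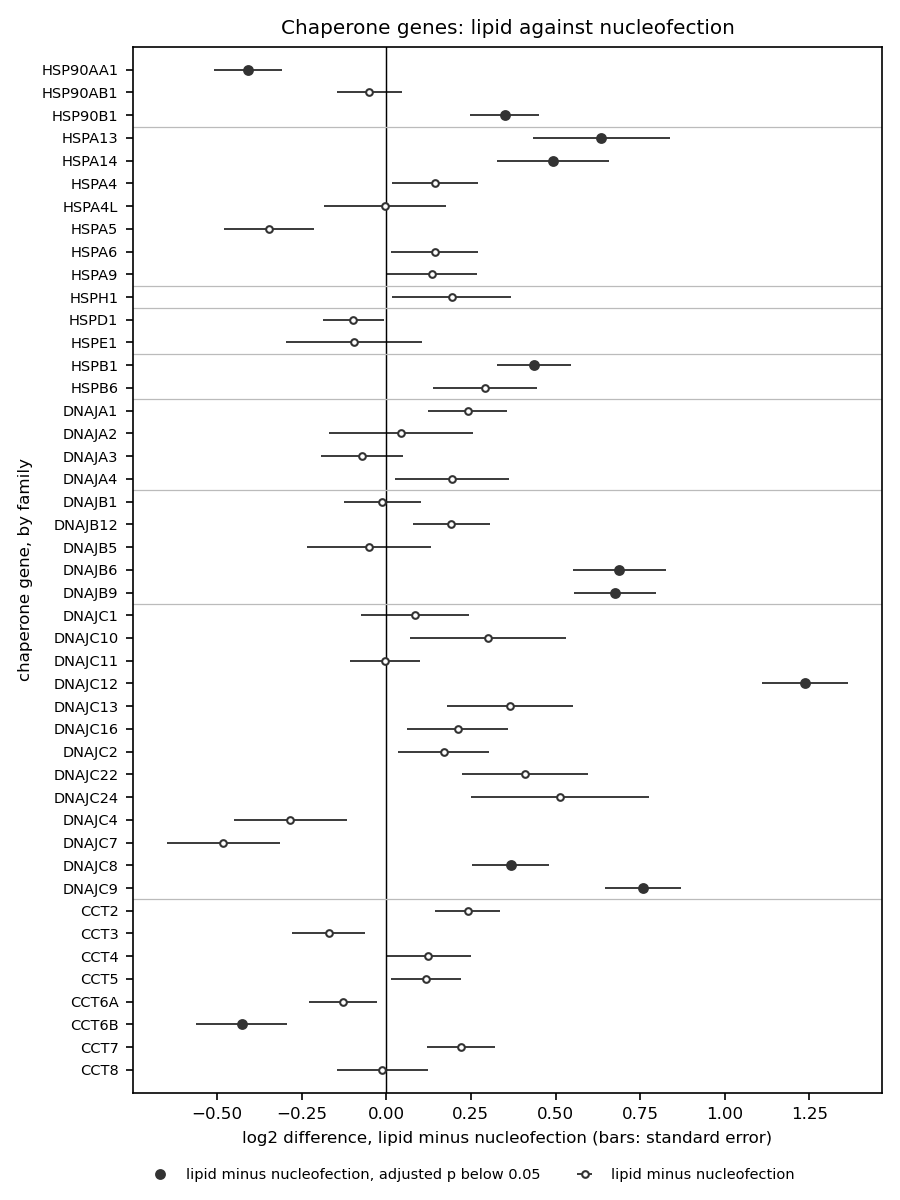
Log2 difference in signal, lipid minus nucleofection (horizontal axis), for each of the 45 tested chaperone genes (rows, by family). Points are means over both siRNAs, bars are the standard error, and filled points had an adjusted p below 0.05; DNAJC12 lies farthest to the right at 1.24, and HSP90AA1 and CCT6B are the filled points left of 0.

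The 4 calls with the smallest p were J-domain proteins. As a family the DNAJ genes were near the background: 5 of 22 tested (22.7%) were called, all higher with lipid, against 22% of all genes, although after quantile normalization DNAJB1 and DNAJC7 were called lower. DNAJC12, a co-chaperone of the aromatic amino acid hydroxylases, had signals of 229 and 174 in untransfected cells. With lipid they were 216, 253 and 284 for luciferase siRNA and 249, 203 and 249.8 for AML1-ETO siRNA. With nucleofection they were 129 without siRNA, 122 and 96.8 for luciferase siRNA, and 99.8, 101 and 87.7 for AML1-ETO siRNA. Every array of nucleofected cells was below every other array, whichever siRNA was used. The lipid arrays were 2.36-fold higher (log2 difference 1.24, SE 0.13, adjusted p = 7.59e-05).

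DNAJC9, which hands histones to HSP70 and acts as a histone chaperone, had the same order. Its signals were 621 and 552 in untransfected cells, 526, 602 and 557 with luciferase siRNA and 479, 467 and 628 with AML1-ETO siRNA by lipid. By nucleofection they were 358 without siRNA, 331 and 326 with luciferase siRNA and 284, 347 and 303 with AML1-ETO siRNA. The highest nucleofection array stayed below the lowest of the rest. The difference was 0.76 (SE 0.11, adjusted p = 7.91e-04), while a dimmer second probe set gave 0.13.

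DNAJB9, a partner of HSPA5 in the endoplasmic reticulum and a textbook target of the unfolded protein response, was called at 0.68 (SE 0.12, adjusted p = 0.00246). Its means were 115 ± 4.35 (SD, n = 3) and 119 ± 29.2 (SD, n = 3) by lipid with luciferase and AML1-ETO siRNA. By nucleofection they were 59.96 ± 1.65 (SD, n = 2) and 88.1 ± 7.32 (SD, n = 3). Lipid and nucleofection arrays did not overlap within either siRNA, and within nucleofection the AML1-ETO arrays were all above the luciferase arrays. DNAJB6, which keeps aggregation-prone proteins soluble, was called at 0.69 (SE 0.14, adjusted p = 0.00431). Its signals were 108 and 112 in untransfected cells and 80.9 to 119.8 on the 6 lipid arrays, against 46.6 to 69.8 on the 6 nucleofection arrays. DNAJC8, a J-domain protein found with splicing factors, was called at 0.37 (SE 0.11, adjusted p = 0.0339), but its other probe sets gave −0.03 and 0.02. DNAJC12, DNAJC9, DNAJB9 and DNAJB6 kept their calls under all 20 alternative settings, which included leaving out each of the 11 arrays compared.

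Among the HSP90 genes the directions differed. HSP90AA1, the stress-inducible cytosolic form, had signals of 2819 and 2467 in untransfected cells and 2642 to 3049 on the lipid arrays. By nucleofection it stood at 3815 without siRNA, at 4157 and 4462 with luciferase siRNA, and at 3184, 3005 and 3625 with AML1-ETO siRNA. The luciferase nucleofection arrays were the highest of all 14. The difference of lipid from nucleofection was −0.41 (SE 0.10, adjusted p = 0.0118). The gene's other probe sets gave −0.19, 0.15 and 0.16, and with the mean of all probe sets the difference was −0.07 (adjusted p = 0.526), so the call rests on 1 probe set. HSP90AB1, the constitutive cytosolic form, was at −0.05 and was not called.

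HSP90B1, the HSP90 of the endoplasmic reticulum and read here by a probe set whose design can take signal from related transcripts, was called at 0.35 (SE 0.10, adjusted p = 0.0253). It had signals of 236 to 317 on the lipid arrays, 187 to 247 on the nucleofection arrays with siRNA and 147 on the array without siRNA. Its second probe set gave −0.22. HSPA5, the HSP70 of the same compartment, was at −0.35 and was not called (adjusted p = 0.0729). Both promoters hold the stress element shown above, and the chosen probe sets of the 2 genes differed in sign here.

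Of the 7 HSP70 genes tested, 2 (28.6%) were called, both higher with lipid, against 22% of all genes called higher. HSPA13, an HSP70 relative of the microsomes, was higher with lipid at 0.64 (SE 0.20, adjusted p = 0.0370) at dim signals of 26.9 to 75.0. HSPA14, which works with DNAJC2 at the ribosome, was higher at 0.49 (SE 0.17, adjusted p = 0.0445). Its lowest array, AML1-ETO siRNA by nucleofection replicate 1, had a signal of 82.8 against 152 and 158 for the other two arrays of that group. HSPB1, the small heat shock protein HSP27, was higher with lipid at 0.44 (SE 0.11, adjusted p = 0.0130). Its signals were 827 to 1124 on the lipid arrays and 638 to 825 on the nucleofection arrays with siRNA, and 989 and 1068 in untransfected cells. Of the CCT genes CCT6B, a form of subunit 6 best known from testis, was lower with lipid at −0.43 (SE 0.13, adjusted p = 0.0355) at signals of 36.5 to 73.9.

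The 7 calls below DNAJB6 in rank were less stable. Leaving out single arrays took the count of 11 to between 6 and 12. It was 7 without luciferase lipid replicate 2, 7 without luciferase lipid replicate 3, 7 without luciferase nucleofection replicate 1 and 6 without AML1-ETO lipid replicate 1. Over all alternatives the highest adjusted p was 0.222 for HSPB1, 0.644 for HSP90B1, 0.588 for DNAJC8, 0.15 for CCT6B, 0.624 for HSPA13 and 0.305 for HSPA14. HSPB1 lost its call without luciferase nucleofection replicate 1 (adjusted p = 0.0616) and after quantile normalization (0.19, adjusted p = 0.222).

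**Figure D3:**
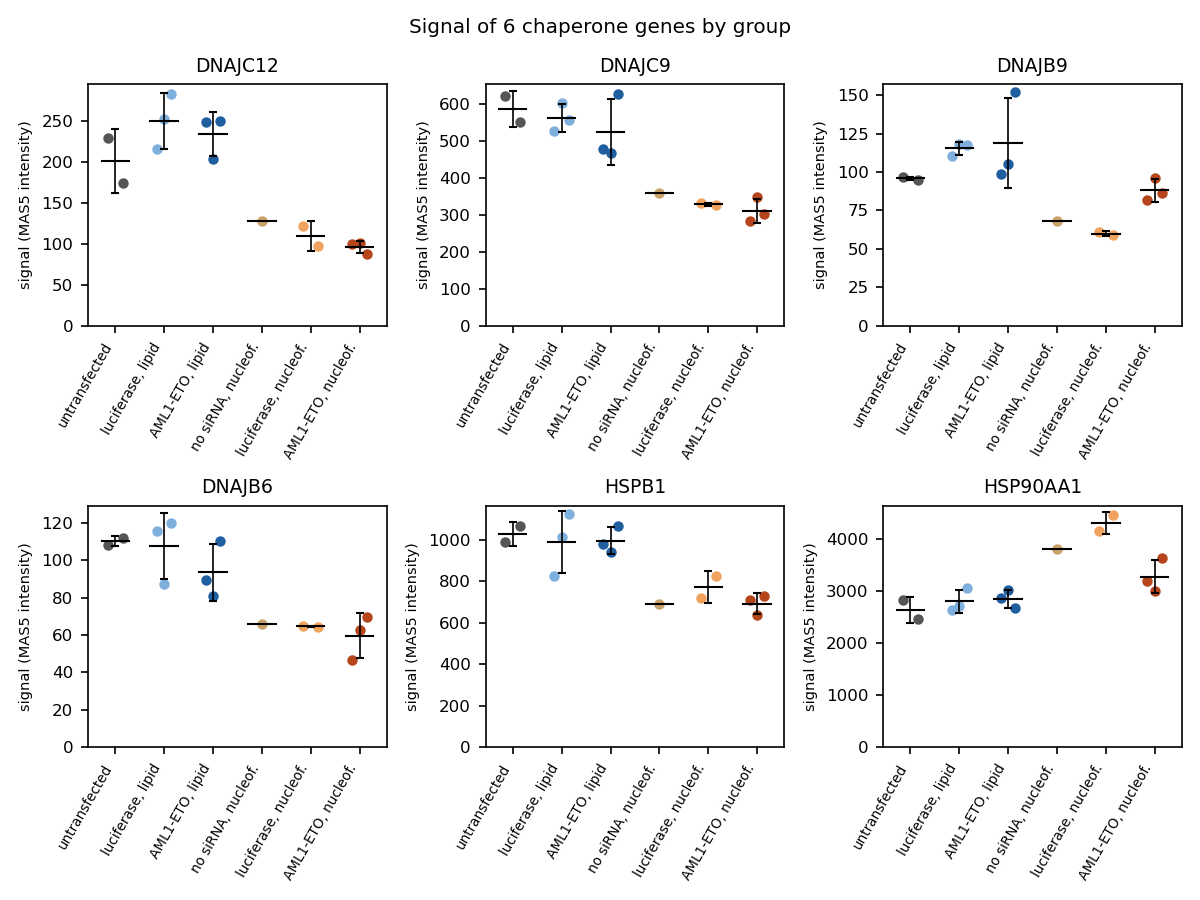
Signal (MAS5 intensity, linear axis from 0) of 6 chaperone genes called between lipid and nucleofection, by group. Each point is 1 array, the long bar is the group mean and the error bars are 1 SD (none for the single array without siRNA); in 5 panels the nucleofection groups lie below the rest, and in the HSP90AA1 panel they lie above.

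The luciferase arrays were then set against untransfected cells, which asks what each method did in the absence of a target. By nucleofection 3 of the 45 members were called, against 5.14% of all genes: 1 was higher (1.24% of all genes) and 2 were lower (3.9%). HSP90AA1 was higher at 0.71 (SE 0.16, adjusted p = 0.0287), a rise of 63.3%. DNAJC9 was lower at −0.83 (SE 0.18, adjusted p = 0.0233) and DNAJC12 at −0.88 (SE 0.21, adjusted p = 0.0309). Next in rank were DNAJB6 at −0.77 and DNAJB9 at −0.68, each with an adjusted p of 0.0696. The array nucleofected without siRNA had 129 for DNAJC12, 358 for DNAJC9, 65.7 for DNAJB6, 68.1 for DNAJB9 and 3815 for HSP90AA1. In each of the 5 genes it lay on the same side of both untransfected arrays as the luciferase arrays did. The 5 genes were picked for their difference from the same untransfected arrays, so this is not separate support. The share of all genes for which it held was not examined. These counts rest on few arrays: the count was 0 without untransfected replicate 1, 1 without untransfected replicate 3 and 0 without either luciferase nucleofection array. The other probe sets of HSP90AA1 gave 0.26, −0.12 and 0.13. After centring arrays on their medians the median of all genes went from −0.06 to −0.25 and the share of all calls that were higher from 24.1% to 6.72%. The members called were then DNAJB6, DNAJB9, DNAJC12, DNAJC9 and HSP90B1, all lower, and HSP90AA1 was not among them. Under that scaling 833 of all 7178 genes were called lower. At an unadjusted p below 0.05 there were 10 members, against 23.2% of all genes.

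By lipid none of the 45 members differed from untransfected cells at an adjusted p below 0.05 in limma, as was true of all 7178 genes (0% called). At an unadjusted p below 0.05 there were 0 members and 267 genes (3.72%). The smallest p values among members belonged to DNAJC12 (0.32), DNAJB9 (0.27), HSPA5 (−0.28) and HSPB6 (0.29), all with an adjusted p of 1. The 95% interval for DNAJC12 ran from −0.09 to 0.73, so a difference of up to that size lies within the error. This comparison and the one by nucleofection share the untransfected arrays.

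Knockdown of AML1-ETO was compared with luciferase siRNA, first averaged over the methods and then within each. In the average 0 of 45 members were called in limma, against 1.66% of all genes. At an unadjusted p below 0.05 there were 15 members (33.3%), of which 13 were lower and 2 higher, against 14.4% of all genes, 9.39% lower and 4.97% higher. The median difference was −0.18 for members and −0.07 for all genes, and 34 of 45 members (75.6%) were below 0 against 64.9% of all genes. After median centring it was 31 of 45, and the share of all calls that were higher went from 68.9% to 87%. The smallest p values were those of DNAJC11 at −0.42 (SE 0.10, adjusted p = 0.0714), CCT3 at −0.32 (SE 0.11, adjusted p = 0.195), HSPB6 at −0.45 (SE 0.15, adjusted p = 0.195) and CCT6A at −0.29 (SE 0.10, adjusted p = 0.2). DNAJC11 passed the threshold under 4 of 21 alternatives. Without AML1-ETO lipid replicate 3 the count was 1, the member being HSPH1. In simulated data with the same group sizes 43% of genes shifted by 0.5 and 89% of genes shifted by 1 were called in this comparison. The simulation drew independent noise with the spread of each gene, without array-wide effects or the floor. Power on the real arrays may differ.

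By nucleofection 1 member was called, against 2.62% of all genes and 0.989% called lower. It was DNAJC11, a mitochondrial J-domain protein associated with the cristae. Its signals were 159.6 and 173 with luciferase siRNA and 112, 87.4 and 112 with AML1-ETO siRNA. They were 143 and 129 in untransfected cells and 108 on the array without siRNA. The AML1-ETO arrays were all below the luciferase arrays, which were the highest of all 14, and the array without siRNA lay among the AML1-ETO arrays. The difference was −0.69 (SE 0.15, adjusted p = 0.0371), 1.61-fold lower. The call was lost when any of the 5 arrays was left out, with adjusted p = 0.125 and 0.21 without luciferase nucleofection replicates 1 and 2. It was 0.0643, 0.0879 and 0.0646 without AML1-ETO nucleofection replicates 1, 2 and 3. Against controls without any siRNA, untransfected or nucleofected, the difference was −0.29 (adjusted p = 0.258), and after centring arrays on their medians it was −0.56 (adjusted p = 0.12). By lipid DNAJC11 was at −0.14, and the difference between the methods was 0.55 (SE 0.21, adjusted p = 0.368).

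The members next in rank by nucleofection did not pass the test. HSPB6, the small heat shock protein HSP20, had signals of 60.2 and 62.0 with luciferase siRNA and 31.2, 44.8 and 25.6 with AML1-ETO siRNA (−0.89, adjusted p = 0.0587). Untransfected cells had 43.8 and 46.4 and the array without siRNA 45.04. HSPB6 was called without AML1-ETO nucleofection replicate 2. HSPA6, an HSP70 gene that is nearly silent without stress, had 39.2 and 41.7 with luciferase siRNA and 59.8, 76.5 and 66.5 with AML1-ETO siRNA (0.73, adjusted p = 0.0641). The AML1-ETO values of HSPA6 lay near the 63.2 and 51.9 of untransfected cells, the array without siRNA had 44.1, and its second, dimmer probe set gave −0.27. CCT2 was at −0.49 (adjusted p = 0.0897).

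Groups that did not overlap were common in this comparison of 3 against 2 arrays. Among members 23 of 45 (51.1%) had all AML1-ETO arrays below all luciferase arrays, against 25.3% of all genes, and 5 (11.1%) had them above, against 12%. The median was −0.29 for members and −0.11 for all genes. At an unadjusted p below 0.05 there were 15 members, 13 lower and 2 higher, against 18.9% of all genes, 12.2% lower and 6.65% higher. In all 37 of 45 members (82.2%) were below 0, against 63.2% of all genes. After median centring that was 34 of 45, the median of all genes was 0.02, the share of all calls that were higher went from 62.2% to 86.4%, and HSPA6 was the only member called, as higher. The luciferase nucleofection arrays are the control here and were the treated group against untransfected cells, so the members are given group by group below.

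**Figure D4:**
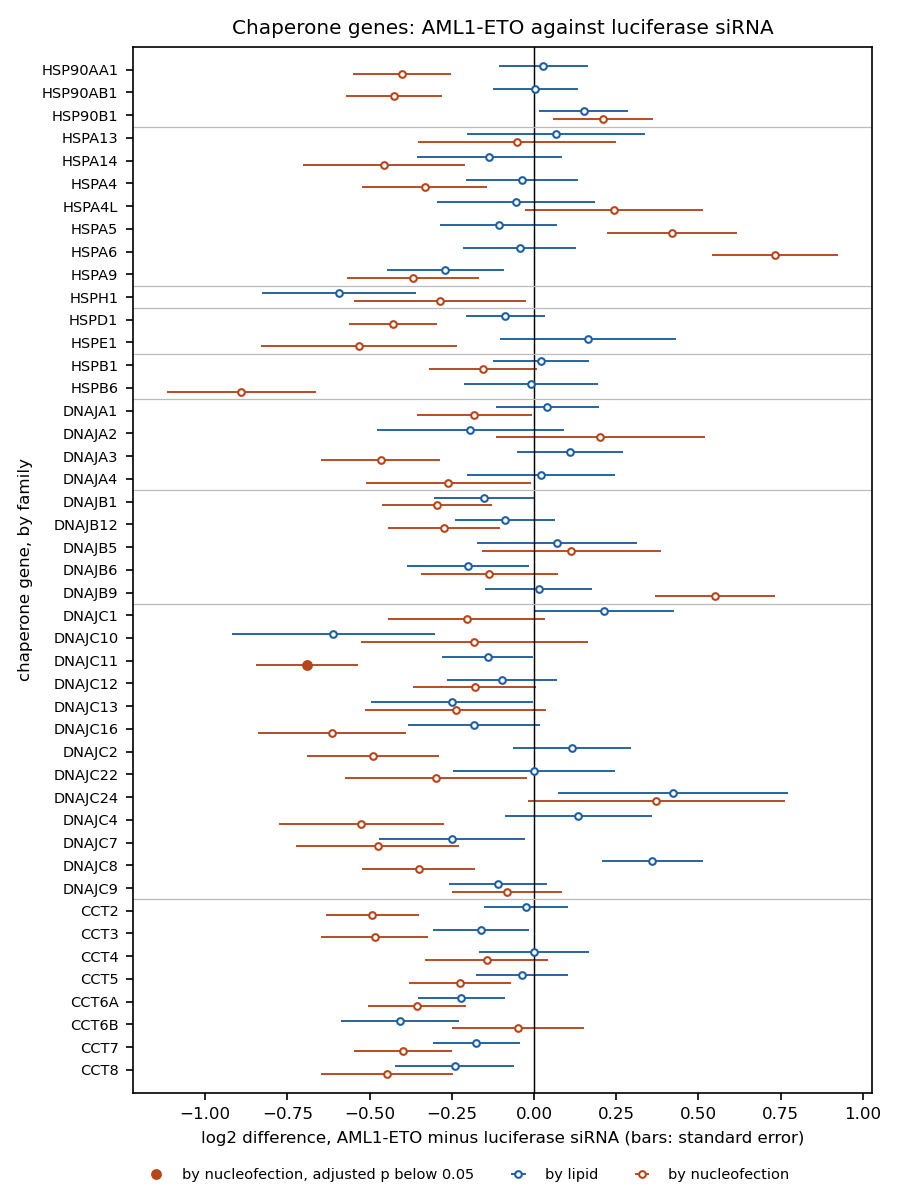
Log2 difference in signal, AML1-ETO minus luciferase siRNA (horizontal axis), for the 45 tested chaperone genes (rows, by family), by lipid (blue) and by nucleofection (red). Bars are the standard error and the filled point, DNAJC11 by nucleofection, is the only one with an adjusted p below 0.05; most red points lie left of 0 while the blue points are spread around it.

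The cytosolic chaperonin CCT folds newly made actin and tubulin in a double ring of subunits. The 7 ring subunits tested (CCT2, CCT3, CCT4, CCT5, CCT6A, CCT7 and CCT8) were all below 0 as the mean of both methods, with a median of −0.29 beside −0.07 for all genes, except that CCT4 was at 0.02 after centring arrays on their medians. None of the 7 was called, against 1.66% of all genes, and 5 had an unadjusted p below 0.05, against 14.4% of all genes. As deposited, 64.9% of all genes were below 0 in that mean, 63.2% by nucleofection and 57.1% by lipid. By nucleofection all 7 were below 0 under each of the 3 scalings, with a median of −0.40 beside −0.11. By lipid all 7 were below 0 as deposited, 5 after quantile normalization and 4 after median centring, with a median of −0.16 beside −0.03.

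The CCT subunits did not share 1 pattern across the groups. CCT2 had signals of 1143 and 1003 in untransfected cells, 1011 to 1142 with luciferase siRNA by lipid, 1102 and 1049 by nucleofection, 1037 without siRNA and 1006 to 1168 with AML1-ETO siRNA by lipid. With AML1-ETO siRNA by nucleofection it had 785, 759 and 751, below each of the other 11 arrays. CCT7 was similar, with 534, 574 and 518 in that group and 615 to 831 elsewhere. A second probe set of CCT2 gave only −0.07 for knockdown by nucleofection.

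In CCT3 and CCT6A the luciferase nucleofection arrays were the highest of all 14. CCT3 had 1173 and 1164 there and 851, 807 and 848 with AML1-ETO siRNA, against 994 and 899 in untransfected cells and 1125 on the array without siRNA, which was nearest to the luciferase arrays. CCT6A had 814 and 759 there and 576, 607 and 663 with AML1-ETO siRNA, against 689.8 and 630.2 in untransfected cells and 731 on the array without siRNA. The AML1-ETO values of CCT6A overlapped those of untransfected cells. CCT8 had 907, 725 and 753 with AML1-ETO siRNA by nucleofection, but the untransfected arrays spanned 805 to 1202. For CCT4 and CCT5 the difference by nucleofection was −0.14 (SE 0.19) and −0.23 (SE 0.16), and the AML1-ETO lipid arrays of CCT4 ranged from 1381 to 2089.

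**Figure D5:**
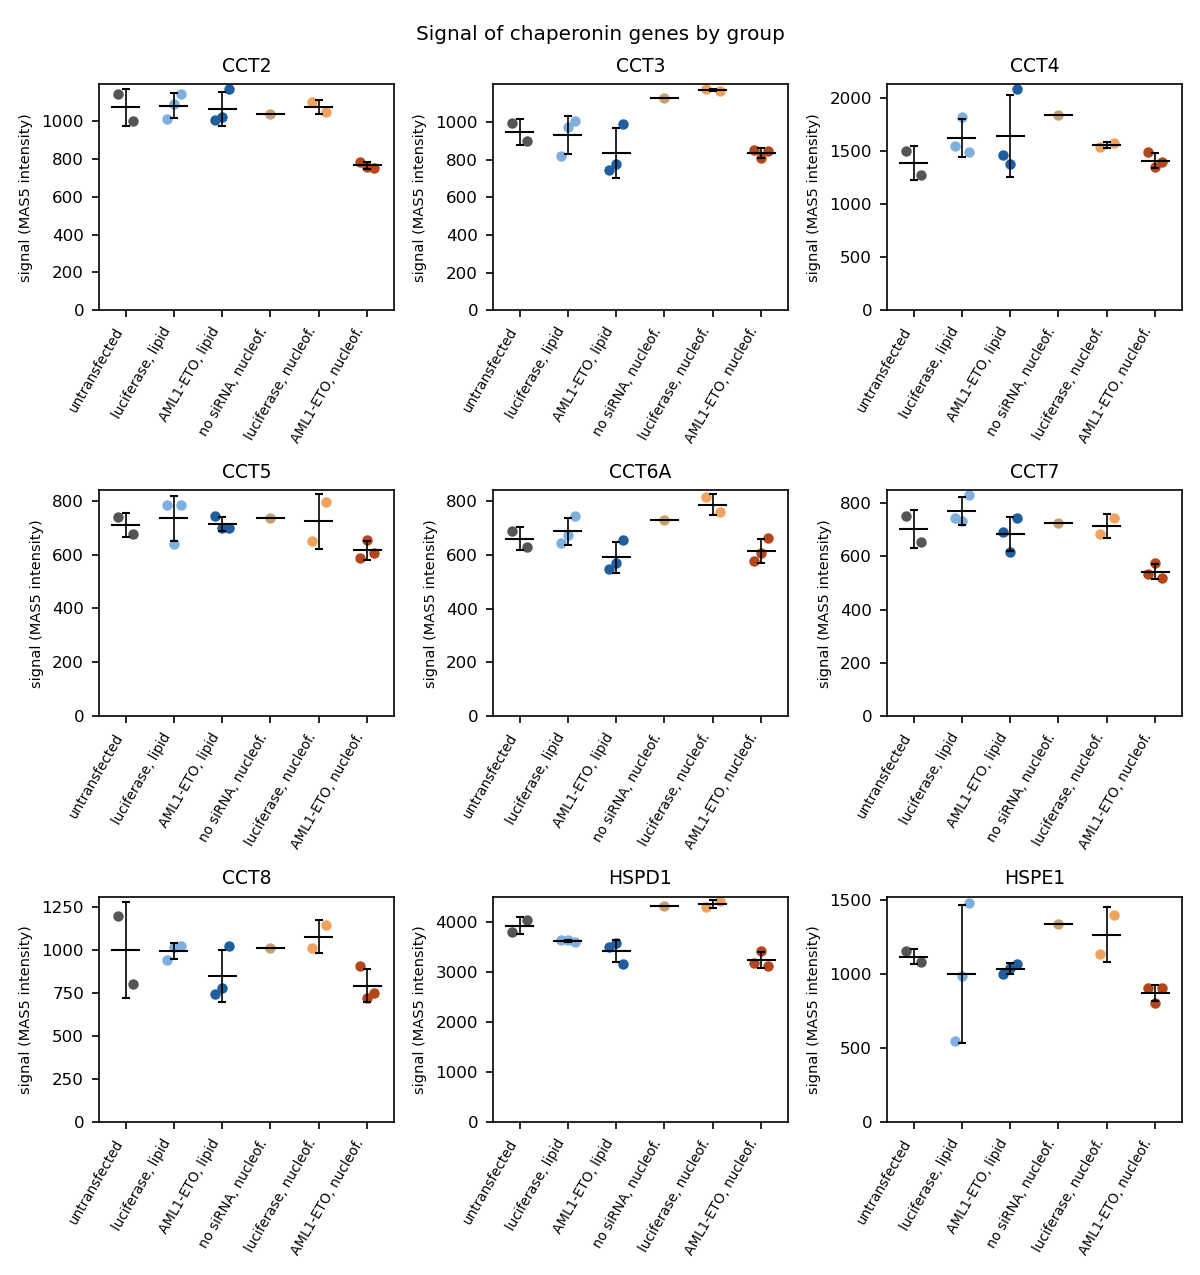
Signal (MAS5 intensity, linear axis from 0) of the 7 tested ring subunits of CCT and of the mitochondrial chaperonin HSPD1 with its lid HSPE1, by group. Each point is 1 array, the long bar is the group mean and error bars are 1 SD (none for the single array without siRNA); the 3 arrays with AML1-ETO siRNA by nucleofection lie lowest for CCT2 and CCT7, while the luciferase nucleofection arrays lie highest for CCT3 and, with the array without siRNA, for HSPD1.

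The mitochondrial chaperones were HSPA9, HSPD1, HSPE1, DNAJA3 and DNAJC11. By nucleofection all 5 were below 0, with a median of −0.47 beside −0.11 for all genes. By lipid 3 were below 0 and 2, HSPE1 and DNAJA3, above, with a median of −0.09 beside −0.03. The mean of both methods, which includes the difference by nucleofection, was below 0 for all 5. Its median was −0.26 beside −0.07. Only DNAJC11 by nucleofection was called, where 2.62% of all genes were. The shares of all genes below 0 were 63.2% by nucleofection, 57.1% by lipid and 64.9% as the mean of both. HSPD1, the mitochondrial HSP60, was the only member whose AML1-ETO arrays were all below the luciferase arrays within both methods, against 1.38% of all genes. By lipid its signals were 3633, 3627 and 3591 with luciferase siRNA and 3494, 3569.6 and 3162 with AML1-ETO siRNA. By nucleofection they were 4300.2 and 4411 with luciferase siRNA and 3184, 3421 and 3111 with AML1-ETO siRNA. The difference was −0.09 by lipid and −0.43 by nucleofection, and −0.26 (SE 0.09, adjusted p = 0.205) as the mean of both. Untransfected cells, at 3799 and 4043, lay between the nucleofection groups, and the array without siRNA, at 4319.7, lay among the luciferase arrays. The second HSPD1 probe set gave −0.56 by nucleofection and −0.04 by lipid.

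HSPE1, the HSP10 lid of the same chaperonin, had 1136 and 1397 with luciferase siRNA and 905, 807 and 906 with AML1-ETO siRNA by nucleofection, and 1342 without siRNA. By lipid its luciferase arrays ranged from 545 to 1478, a wider range than the knockdown difference. HSPA9, the mitochondrial HSP70, was at −0.37 by nucleofection and −0.27 by lipid, with signals of 434, 488 and 438 in the AML1-ETO nucleofection group against 477 to 719 on the other arrays. DNAJA3, its J-domain partner, had 186 and 184 with luciferase siRNA and 151, 127 and 125 with AML1-ETO siRNA by nucleofection, beside 153 and 124 in untransfected cells and 176 on the array without siRNA.

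In the cytosolic HSP90 pair the luciferase nucleofection arrays were again the highest. HSP90AB1 had 4734 and 5094 there, against 4016, 3201 and 3802 with AML1-ETO siRNA by nucleofection, 3935 to 4298 on the 6 lipid arrays, 3847 and 4147 in untransfected cells and 4150.4 on the array without siRNA. Knockdown by nucleofection was at −0.43 for HSP90AB1 (adjusted p = 0.143) and at −0.40 for HSP90AA1 (adjusted p = 0.174). By lipid HSP90AB1 was at 0.00 and HSP90AA1 at 0.03. For HSP90AA1 all 4 probe sets were below 0 by nucleofection, at −0.40, −0.30, −0.24 and −0.46, and both probe sets of HSP90AB1 were, at −0.43 and −0.53.

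Chaperones of the endoplasmic reticulum differed in direction in knockdown by nucleofection. There 3 of the 6 tested were above 0 and 3 below, against 36.8% of all genes above 0. As the mean of both methods 5 of the 6 were above 0, against 35.1% of all genes. The median of that mean was 0.08 beside −0.07 for all genes, and none was called, against 1.66% of all genes. HSPA5, the main HSP70 of that compartment and known as BiP, had 1079 and 1095 with luciferase siRNA by nucleofection and 1323, 1682 and 1381 with AML1-ETO siRNA. It had 1366 on the array without siRNA, and 1053 and 1476 in untransfected cells, so the AML1-ETO arrays overlapped those without any siRNA. The difference by nucleofection was 0.42 (SE 0.20, adjusted p = 0.277) and by lipid −0.11. DNAJB9 was at 0.55 by nucleofection (SE 0.18, adjusted p = 0.133) and at 0.01 by lipid. After quantile normalization DNAJB9 and HSPA6 passed the threshold as higher by nucleofection, and HSPB6, HSPD1 and DNAJC11 as lower. Of all 7178 genes, 256 were then called higher and 116 lower.

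By lipid 0 of 45 members were called, against 0.125% of all genes, and 3 members had an unadjusted p below 0.05 (6.67%, against 4.53% of all genes). The median was −0.04 for members and −0.03 for all genes, and 28 of 45 (62.2%) were below 0, against 57.1%. HSPH1, the HSP110 that recharges HSP70 with ATP, had signals of 315, 475 and 401 with luciferase siRNA and 207, 211 and 399.8 with AML1-ETO siRNA. The groups overlapped through replicate 3 of the AML1-ETO arrays, and the difference was −0.59 (SE 0.23, adjusted p = 0.956). DNAJC8 was at 0.36 (adjusted p = 0.999), with 239, 209.5 and 262 against 305, 350.4 and 259.8. With the mean of its probe sets it was at −0.04. CCT6B was at −0.41 and DNAJC10, a disulphide reductase of the endoplasmic reticulum, at −0.61, each with an adjusted p of 0.999.

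The difference between the methods in the effect of knockdown was tested directly. None of the 45 members passed, against 0.0557% of all genes, and 9 had an unadjusted p below 0.05 (20%, against 10.8%). The smallest p values were those of DNAJC8 (0.71, SE 0.23, adjusted p = 0.319), HSPA6 (−0.78, SE 0.26, adjusted p = 0.319), HSPB6 (0.88, SE 0.31, adjusted p = 0.332) and DNAJC11. So no chaperone was shown to respond differently to knockdown in the 2 methods. In simulated data of the same kind as above the power was low. There 1% of genes shifted by 0.5 and 19% of those shifted by 1 were called in this comparison.

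The remaining members had no call in any comparison at the main settings. HSPA4 and HSPA4L, relatives of HSPH1, had signals of 188 to 324 and 33.3 to 63.9 over the 14 arrays. DNAJA1, the main J-domain partner of cytosolic HSP70, ranged from 411 to 673, and DNAJB1, a stress-inducible HSP40, from 224 to 331. DNAJA2 spread as widely within groups as between them, with 285, 278 and 609.6 on the arrays with AML1-ETO siRNA by lipid. DNAJC7, which binds both HSP70 and HSP90, was at −0.48 between lipid and nucleofection (adjusted p = 0.0504), with 192 on luciferase nucleofection replicate 1 and 76.0 to 135 on the lipid arrays. It was called lower with lipid after quantile normalization, with a pseudocount of 32, with the mean of its probe sets, with the robust variance prior, and when luciferase lipid replicate 1 or replicate 2 of luciferase nucleofection was left out. DNAJB1 was called lower with lipid after quantile normalization alone. DNAJC2, the J-domain partner of HSPA14 at the ribosome, had 256 and 242 with luciferase siRNA and 173, 187 and 172 with AML1-ETO siRNA by nucleofection, beside 173 on the array without siRNA.

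Genes that work with these chaperones were taken from 4 lists. In the knockdown comparisons none was called among 24 co-chaperones of HSP70 and HSP90, 7 heat shock factors and other regulators, 13 prefoldin subunits and CCT cofactors and 15 folding factors of the endoplasmic reticulum. By nucleofection, quantile normalization changed this for ERP29 and PDIA4 (higher) and MANF (lower), and median centring for ERP29 and P4HB (higher), all folding factors of the endoplasmic reticulum. Among all 7178 genes quantile normalization called 256 higher and 116 lower there, and median centring 185 higher. Between lipid and nucleofection all calls in the lists were higher with lipid under each of the 3 scalings, although after quantile normalization fewer remained: 2 co-chaperones, 1 regulator, 3 CCT cofactors and 1 folding factor. Of all 7178 genes, 632 were called higher there after quantile normalization, and 22% as deposited. The counts that follow are as deposited. Among co-chaperones there were 8 of 24 (33.3%), including GRPEL1, the nucleotide exchange factor of HSPA9 (0.57, adjusted p = 0.00148), HYOU1, that of HSPA5 (0.63, adjusted p = 0.00213), and CDC37, which brings kinases to HSP90 (0.65, adjusted p = 0.0112). Among prefoldin subunits and CCT cofactors there were 6 of 13 (46.2%), led by PDCL, a phosducin-like protein that binds CCT (0.92, adjusted p = 0.00271). TBCC (0.62) and VBP1 (0.44) were also among them. Mean PDCL signals with luciferase siRNA were 70.6 by lipid and 19.5 by nucleofection. With AML1-ETO siRNA they were 49.25 and 41.5, so the PDCL difference came mostly from the luciferase arrays. The array nucleofected without siRNA had 58.6 for PDCL, beside 53.2 in untransfected cells, and 1 array was below the floor. Among folding factors of the endoplasmic reticulum there were 6 of 15 (40%), with ERP29 (0.48, adjusted p = 0.00389), PDIA6 (0.53) and DERL1 (0.79) as examples. The heat shock factors and regulators had 2 of 7 (28.6%), CLPP (0.37, adjusted p = 0.0408) and SERPINH1.

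SERPINH1, the collagen chaperone HSP47 and a textbook target of HSF1, had the largest difference among the called genes of the lists. Its mean signal was 95.2 ± 22.6 (SD, n = 2) in untransfected cells. By lipid it was 82.05 ± 22.3 (SD, n = 3) for luciferase and 72.7 ± 8.82 (SD, n = 3) for AML1-ETO siRNA. By nucleofection it was 20.6 on the array without siRNA, 24.2 ± 12.2 (SD, n = 2) for luciferase and 29.4 ± 2.18 (SD, n = 3) for AML1-ETO siRNA. The nucleofection groups were close to the floor of 20, and 1 array was below it, which understates the differences that include it. Lipid against nucleofection was at 1.47 (SE 0.17, adjusted p = 0.000167) and luciferase nucleofection against untransfected cells at −1.87 (SE 0.28, adjusted p = 0.00404). In the latter comparison PDCL (−1.14, adjusted p = 0.0337), ERP29 (−0.85, adjusted p = 0.00993) and PDIA4 (−0.69, adjusted p = 0.0368) were also lower. By list the genes called lower were 0 of 24 co-chaperones, 1 of 7 regulators, 1 of 13 CCT cofactors and 2 of 15 folding factors. Of all genes 3.9% were called lower. On the array nucleofected without siRNA PDCL had 58.6 and PDIA4 357, beside means of 53.2 and 387 in untransfected cells. ERP29 had 534 there, beside 878, and 1 array of PDCL was below the floor of 20. PDIA4 lost its call after quantile normalization. After median centring the genes called lower were 5 co-chaperones, 1 regulator, 4 CCT cofactors and 4 folding factors of the endoplasmic reticulum. Under that scaling 833 of all 7178 genes were called lower.

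Set beside the promoters shown above, the chosen probe sets of the members with a 3-unit heat shock element did not move together. Between lipid and nucleofection HSP90AA1 was lower with lipid and DNAJB6 higher, both called, while HSP90AB1, HSPA6 and HSPD1 were at −0.05, 0.14 and −0.10. The HSP90AA1 call rests on its chosen probe set alone, as given above. In knockdown by nucleofection HSPA6 was at 0.73, while HSPD1, HSP90AB1, HSP90AA1 and DNAJB6 were at −0.43, −0.43, −0.40 and −0.14, none of them called. The dimmer probe set of HSPA6 had the opposite sign there. The list of classical stress-inducible chaperones, in which HSPD1 and HSPE1 are counted, held 14 genes, of which 9 were tested. Their median was −0.29 by nucleofection, beside −0.11 for all genes, and −0.04 by lipid, beside −0.03. In either comparison 0 were called, against 2.62% of all genes by nucleofection and 0.125% by lipid.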

How the data were processed

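The deposited values were the authors' MAS5 intensities on a linear scale, 1 table of 14 one-colour Affymetrix arrays, with MAS5 named per the submitters' processing notes and no version given. The mean intensity was 138.5 on every array, and between 38.41% and 44.32% of probe sets lay below 20. From these, values under 20 were raised to 20 and log2 was taken. Only probe sets with 1 gene symbol were used, the brightest by mean over the 14 arrays standing for its gene. The upper 60% of genes by mean were fitted in limma 3.58.1 (R 4.3.3) with 6 group means, moderated variances and Benjamini-Hochberg adjustment over the 7178 genes. A call is an adjusted p below 0.05. Fold changes are on the floored log2 scale and are understated for dim genes. The number of arrays limits the precision.

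The code was tested on simulated data. The members and lists were chosen with earlier results of these data known. Text names every called member, or the 4 with the smallest p, the members of the HSP90, HSP70, chaperonin and CCT families, and the brightest HSPB and DNAJ genes; up to 6 called genes of each related list were eligible. Members given with per-array values beyond that rule were chosen after their values were seen. Replicate 3 of luciferase nucleofection and replicate 2 of untransfected cells were not analysed here. Alternatives covered scaling, floor, pseudocount, filter, probe set choice, variance model, replicate block, controls and leaving out each array.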

Additional observations from a re-analysis of the deposited data

How the results depend on the processing

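For knockdown as the mean of both methods the count of 0 became 2 with a floor of 64, 2 with no filter and 2 with a robust, intensity-dependent variance prior (DNAJC11 and HSPD1 each time), and 1 with the mean of all probe sets. Leaving out single arrays gave 0 to 1. For knockdown by nucleofection the count of 1 became 5 after quantile normalization, 4 with a floor of 64, 2 with a pseudocount of 32, 4 with no filter, 2 with the mean of all probe sets, 5 with the robust prior and 2 with untransfected cells and the array without siRNA as controls. In the last setting the genes were DNAJC12 and DNAJC9, not DNAJC11. It was 0 when only the arrays compared were fitted, and 0 to 1 when single arrays were left out. For luciferase nucleofection against untransfected cells the count of 3 became 5 after median centring, 5 with a floor of 64, 1 with the mean of all probe sets and 0 when only the arrays compared were fitted, and 0 to 1 when single arrays were left out. For lipid against nucleofection the count of 11 stayed between 8 and 14, and between 6 and 12 when single arrays were left out. The counts for knockdown by lipid, for the difference between methods and for luciferase lipid against untransfected cells were 0 in each setting run. With the mean of all probe sets DNAJC8 turned to −0.041 for knockdown by lipid and to −0.11 for the difference between methods. Calls among all 7178 genes changed too. For knockdown by nucleofection they went from 117 higher and 71 lower to 256 and 116 after quantile normalization. For luciferase nucleofection against untransfected cells they went from 89 higher and 280 lower to 60 and 833 after median centring. For the other settings the share of all genes is not given, so the member counts here are not a result about the chaperones. The cause of these changes was not tested.

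Over 22 pairs of same-numbered replicates the correlation of their deviations from the group means ran from −0.287 to 0.0529. The groups are small, and differently numbered pairs were not compared. The check therefore cannot decide whether the numbers pair the arrays. With the replicate number as a block, the replicate block fit gave 0 members for knockdown by nucleofection, 0 for luciferase nucleofection against untransfected cells and 8 for lipid against nucleofection.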
